A study of Mus musculus with 9 samples.

Results

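The WNT module of mouse ovary described here holds 49 genes of the 22544 rows in the deposited expression table. They were chosen by symbol: 19 WNT ligands, 10 Frizzled receptors, the co-receptors Lrp5 and Lrp6, 4 R-spondins and their 3 receptors Lgr4, Lgr5 and Lgr6, the receptor ligases Znrf3 and Rnf43, and 9 secreted antagonists (4 Sfrp genes, 4 Dkk genes and Wif1). Polyadenylated RNA was sequenced from 9 ovary libraries, 3 in each group. The HBOT libraries came from mice given both CTX, the usual abbreviation of the alkylating drug cyclophosphamide, and hyperbaric oxygen. The CTX libraries came from mice given CTX, and the NC libraries were the controls, whose labels name neither treatment. Strain, age, dose, schedule and the number of animals behind a library are not given in the labels, so the p-values below measure only the spread between these samples, which may be technical.

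WNT proteins are secreted lipid-modified signals. They bind a Frizzled receptor together with LRP5 or LRP6, which spares beta-catenin from destruction so that it can switch on genes with TCF and LEF factors, or they act through Frizzled and other receptors without beta-catenin. The ligases ZNRF3 and RNF43 remove Frizzled from the cell surface, and R-spondins, held by LGR receptors, block those ligases and so make cells more sensitive to WNT. SFRP proteins and WIF1 bind WNT ligands outside the cell, and DKK1 blocks the LRP co-receptors. In the mouse, Wnt4 and Rspo1 are needed for the ovary to form, Lgr5 marks cells of the ovarian surface epithelium, and Sfrp4 is known from the rodent corpus luteum.

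Values are FPKM as deposited, that is, fragments scaled to transcript length and library size. Library sums ran from 394046 to 420058 FPKM, and read depth is unknown. Oocyte markers (8 of 8 listed) and granulosa cell markers (8 of 8) averaged at least 1 FPKM over the 9 libraries. HBOT replicate 2 stood apart. There, 1637 of 13338 tested rows differed by over 1 log2 unit from the other libraries' mean, against 173 to 347 rows in each other library, and 8 ovulatory response genes summed to 881 FPKM, against 2.73 to 5.52 FPKM in the others. Of the 30 WNT genes tested, 7 lay that far out in HBOT replicate 2, against 0 to 4 in each other library. CTX replicate 1 was the next in this count, with 4. It alone had Adipoq (5.24 FPKM) and Cidec (3.33 FPKM), fat cell genes listed at 0 in the other 8 libraries, and its 5 adipocyte markers summed to 44.7 FPKM, against 4.34 to 22 FPKM elsewhere. Values without these libraries are given where they matter, and the part of fat tissue in them was not tested.

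RefSeq promoters (250 bases before to 50 bases after a start site, build GRCm38.p6) were matched by symbol for 31 of the 49 genes, 35 promoters in all. Those shown belong to the genes with a matched promoter whose CTX and NC libraries did not overlap. Wnt10b and Fzd1 were lower in CTX, and Wnt5b, with 3 start sites, and Lgr6 were higher. Capitals mark 4 motifs searched on both strands, CTTTGAA and CTTTGAT (TCF and LEF factors), TGANTCA (AP-1) and GGGCGG (SP and KLF factors). All 6 lie on the minus strand and are written 5′ to 3′ along the gene, at chr15:98778101-98778400, chr5:4758167-4758466, chr6:119544298-119544597, chr6:119467162-119467461, chr6:119449337-119449636 and chr1:135105227-135105526.
Wnt10b: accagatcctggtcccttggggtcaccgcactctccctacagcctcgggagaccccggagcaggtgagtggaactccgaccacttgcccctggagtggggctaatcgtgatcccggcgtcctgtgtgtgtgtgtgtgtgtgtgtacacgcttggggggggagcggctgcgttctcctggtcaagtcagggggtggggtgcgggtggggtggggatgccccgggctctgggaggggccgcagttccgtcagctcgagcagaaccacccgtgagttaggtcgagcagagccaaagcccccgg
Fzd1: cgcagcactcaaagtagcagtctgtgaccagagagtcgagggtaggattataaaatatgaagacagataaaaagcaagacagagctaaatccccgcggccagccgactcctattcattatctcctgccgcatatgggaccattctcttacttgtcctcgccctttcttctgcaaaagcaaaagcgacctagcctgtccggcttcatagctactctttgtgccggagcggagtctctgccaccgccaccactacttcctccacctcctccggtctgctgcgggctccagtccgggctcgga
Wnt5b at 119544298: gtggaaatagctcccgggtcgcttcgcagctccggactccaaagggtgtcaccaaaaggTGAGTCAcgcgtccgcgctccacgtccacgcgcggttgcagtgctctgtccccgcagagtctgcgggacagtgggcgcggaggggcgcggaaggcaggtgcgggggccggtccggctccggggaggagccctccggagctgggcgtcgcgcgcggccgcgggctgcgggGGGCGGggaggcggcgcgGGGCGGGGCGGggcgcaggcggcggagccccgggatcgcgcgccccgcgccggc
Wnt5b at 119467162: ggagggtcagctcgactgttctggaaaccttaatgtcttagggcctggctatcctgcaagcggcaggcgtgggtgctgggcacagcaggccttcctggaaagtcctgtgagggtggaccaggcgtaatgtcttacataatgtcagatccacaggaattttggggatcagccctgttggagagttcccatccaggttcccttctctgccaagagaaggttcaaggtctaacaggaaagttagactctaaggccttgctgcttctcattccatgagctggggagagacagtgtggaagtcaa
Wnt5b at 119449337: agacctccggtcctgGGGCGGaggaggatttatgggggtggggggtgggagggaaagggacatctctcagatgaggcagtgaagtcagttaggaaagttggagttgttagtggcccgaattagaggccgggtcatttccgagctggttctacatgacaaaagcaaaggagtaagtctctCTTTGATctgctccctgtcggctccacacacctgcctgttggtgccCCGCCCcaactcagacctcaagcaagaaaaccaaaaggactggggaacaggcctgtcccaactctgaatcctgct
Lgr6: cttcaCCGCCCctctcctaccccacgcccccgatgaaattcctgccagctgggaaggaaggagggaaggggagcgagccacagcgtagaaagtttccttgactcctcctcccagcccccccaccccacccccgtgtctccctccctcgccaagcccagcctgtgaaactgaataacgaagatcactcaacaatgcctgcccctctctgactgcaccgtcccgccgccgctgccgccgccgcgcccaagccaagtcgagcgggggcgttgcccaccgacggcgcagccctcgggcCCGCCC
Counted from the start site, the Wnt5b promoter at 119449337 holds CTTTGAT at -71, and the one at 119544298 holds an AP-1 match at -191. GGGCGG lies at -22, -4 and 2 in the one at 119544298, the last 2 matches overlapping, and at -235 and, on the other strand, -25 in the one at 119449337. In the Lgr6 promoter it lies on the other strand at -245 and 45. Neither Wnt10b, Fzd1 nor the Wnt5b promoter at 119467162 has any of the 4 motifs in these 300 bases, which says nothing about binding elsewhere. Among the 35 promoters of the WNT genes, CTTTGAT occurred in 2 (5.71%), CTTTGAA in 1 (2.86%), TGANTCA in 1 (2.86%) and GGGCGG in 24 (68.6%). In all 32851 RefSeq promoters of that length the shares were 3.73%, 5.14%, 7.81% and 35.7%, in the same order.

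Of the 49 genes, 30 reached 1 FPKM in at least 3 libraries and were tested, and 25 averaged at least 2 FPKM over the 9 libraries. The 19 untested genes stayed at or under 1.05 FPKM in every library. They were 10 ligands, Fzd9, Fzd10, Rspo3, Rspo4, Sfrp5, Dkk1, Dkk2, Dkk4 and Wif1. Wnt8b was listed at 0 in all 9 libraries and Dkk4 in 8. The tested genes Sfrp2, Wnt7b and Wnt11 reached 1 FPKM in exactly 3 libraries, so that their testing depended on the libraries in which they were high. The plot of levels shows the 25 more abundant genes.

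**Figure D1:**
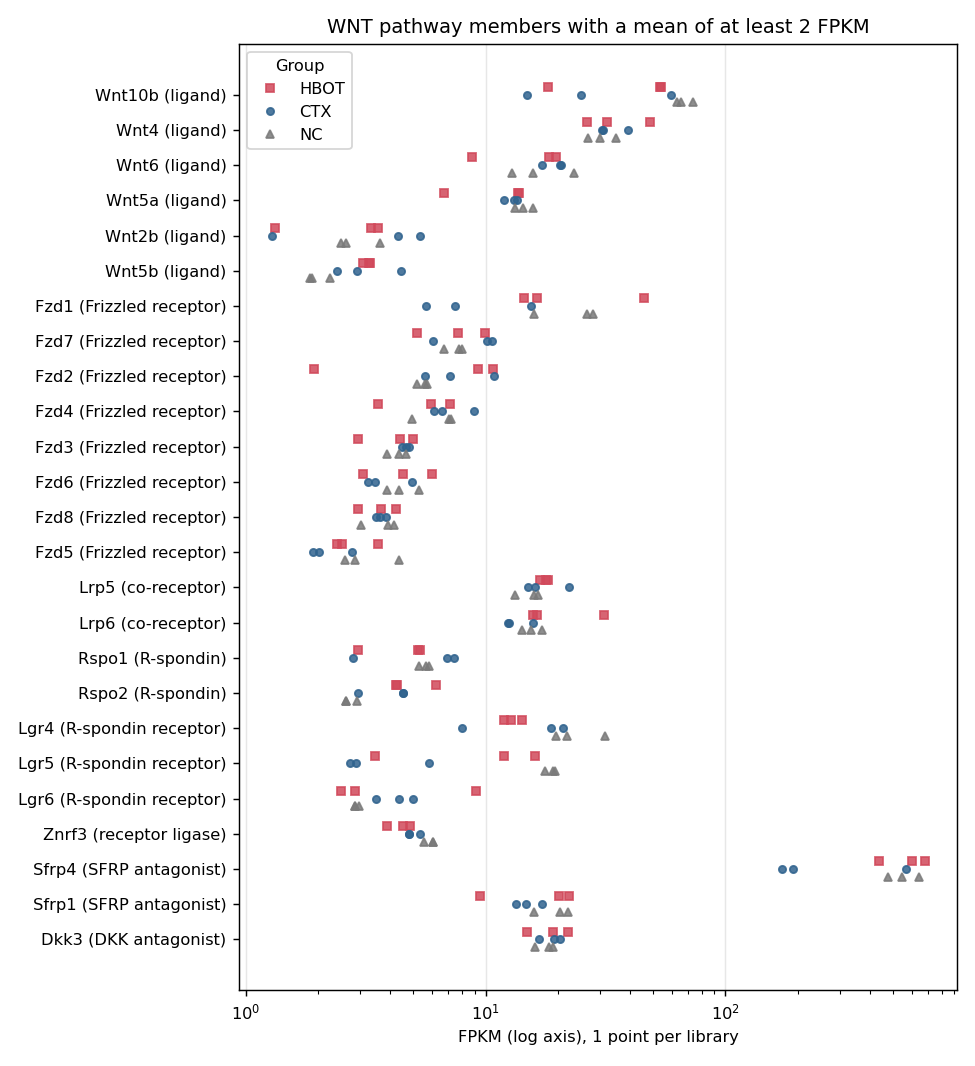
FPKM of the 25 WNT genes with a mean of at least 2 FPKM, on a log axis, 1 point per library, ordered by role and mean. Sfrp4 lies far above the rest, and the 3 NC points of Lgr5 lie to the right of all HBOT and CTX points.

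Wnt10b, Wnt4, Wnt6 and Wnt5a made up most of the ligand FPKM. The first, a ligand of the beta-catenin route, was the most abundant on average and stood at 53.4, 18.1 and 53.8 FPKM in the HBOT libraries, 14.9, 25 and 59.4 FPKM in the CTX libraries and 73.3, 65.4 and 63.1 FPKM in the NC libraries. All 3 NC libraries were above every CTX and HBOT library, with CTX replicates 1 and 2 and HBOT replicate 2 lowest. Its neighbour in the genome, Wnt1, the next protein-coding gene in the RefSeq annotation, stayed at or under 0.0308 FPKM.

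Wnt4 showed no such order, at 26.4, 48.5 and 32.2 FPKM in the HBOT libraries, 30.8, 39.4 and 30.6 FPKM in the CTX libraries and 26.7, 35 and 30.1 FPKM in the NC libraries. The groups overlapped, and HBOT replicate 2 was highest. Wnt6 was at 18.4, 8.78 and 19.7 FPKM in the HBOT libraries, 17.2, 20.5 and 20.7 FPKM in the CTX libraries and 12.9, 15.8 and 23.3 FPKM in the NC libraries, again with overlapping groups, and its neighbour Wnt10a stayed at or under 0.908 FPKM. Wnt5a, which mostly acts without beta-catenin, was at 13.7, 6.74 and 13.6 FPKM in the HBOT libraries, 13.2, 11.9 and 13.5 FPKM in the CTX libraries and 15.8, 14.3 and 13.3 FPKM in the NC libraries, with HBOT replicate 2 lowest.

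Less abundant ligands followed. Wnt5b, a relative of Wnt5a, was at 3.25, 3.07 and 3.29 FPKM in the HBOT libraries, 4.43, 2.92 and 2.40 FPKM in the CTX libraries and 1.89, 1.85 and 2.25 FPKM in the NC libraries. Every HBOT and CTX library was above every NC library. Wnt2b was at 3.57, 3.33 and 1.32 FPKM in the HBOT libraries, 4.33, 5.30 and 1.28 FPKM in the CTX libraries and 2.51, 3.62 and 2.62 FPKM in the NC libraries, with CTX replicate 3 and HBOT replicate 3 lowest. Of the other tested ligands, Wnt9a reached at most 2.61 FPKM and Wnt7b 2.07 FPKM, while Wnt11 was at 4.10 FPKM in HBOT replicate 2 and at most 1.39 FPKM elsewhere. The 19 ligands together summed to 95.6 to 129 FPKM in HBOT, 88.4 to 130.2 FPKM in CTX and 136 to 142 FPKM in NC. Wnt10b held 19.0% to 43.0% of that sum in HBOT, 16.9% to 45.6% in CTX and 45.2% to 53.8% in NC. Thus the NC libraries had the largest ligand sums of the 9, with Wnt10b as their main ligand.

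**Figure D2:**
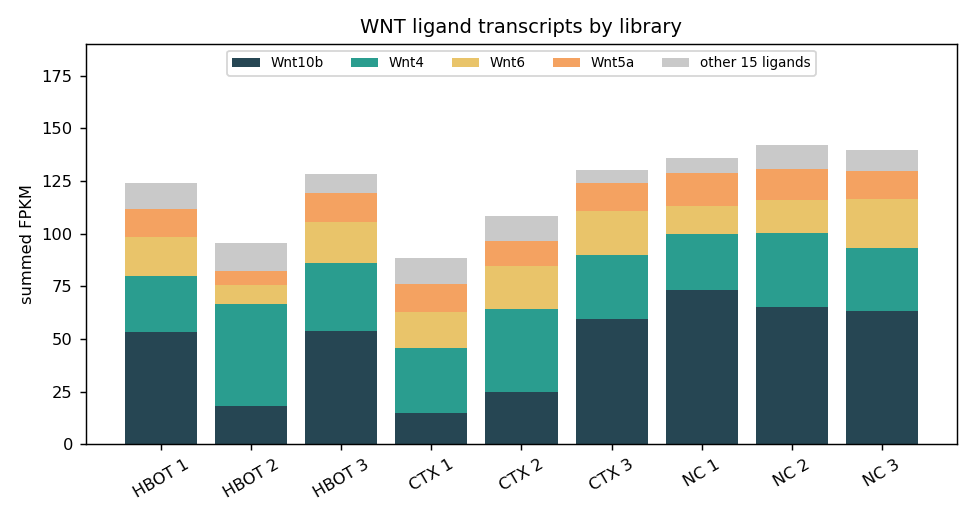
Summed FPKM of the 19 WNT ligands by library, stacked by gene. The Wnt10b segment is shortest in HBOT replicate 2 (18.1 FPKM) and CTX replicates 1 and 2 (14.9 and 25 FPKM), while Wnt4 is tallest in HBOT replicate 2 (48.5 FPKM).

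Among the Frizzled receptors, Fzd1 was the most abundant on average, at 14.5, 46 and 16.4 FPKM in the HBOT libraries, 7.44, 15.5 and 5.62 FPKM in the CTX libraries and 15.9, 27.9 and 26.6 FPKM in the NC libraries. CTX lay below NC in every library, and HBOT replicate 2 was the highest of the 9. Fzd1 held 23.8% to 63.7% of the Frizzled sum in HBOT, 13.5% to 29.3% in CTX and 30.9% to 44.2% in NC. Fzd7 stood at 9.96, 5.15 and 7.64 FPKM in the HBOT libraries, 10.6, 10.1 and 6.06 FPKM in the CTX libraries and 6.72, 7.97 and 7.72 FPKM in the NC libraries, with overlapping groups.

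Fzd2 was at 10.7, 1.92 and 9.28 FPKM in the HBOT libraries, 10.8, 5.61 and 7.13 FPKM in the CTX libraries and 5.57, 5.72 and 5.18 FPKM in the NC libraries, lowest in HBOT replicate 2. Fzd4, a receptor also used by the vascular ligand norrin, was at 7.08, 3.58 and 5.94 FPKM in the HBOT libraries, 6.08, 6.58 and 8.93 FPKM in the CTX libraries and 7.19, 7.01 and 4.93 FPKM in the NC libraries. In both genes the groups overlapped.

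The other 4 measured Frizzled genes were lower and overlapped between groups. Fzd3 was at 5.0, 2.95 and 4.40 FPKM in the HBOT libraries, 4.50, 4.78 and 4.67 FPKM in the CTX libraries and 4.36, 4.66 and 3.88 FPKM in the NC libraries. Fzd6 was at 5.99, 4.52 and 3.08 FPKM in the HBOT libraries, 4.95, 3.46 and 3.23 FPKM in the CTX libraries and 4.37, 5.28 and 3.86 FPKM in the NC libraries. These 2 receptors are best known from planar cell polarity. For Fzd8 the values were 4.24, 3.65 and 2.93 FPKM in the HBOT libraries, 3.64, 3.51 and 3.86 FPKM in the CTX libraries and 4.15, 3.93 and 3.01 FPKM in the NC libraries. For Fzd5 they were 2.51, 3.56 and 2.39 FPKM in the HBOT libraries, 2.02, 2.78 and 1.91 FPKM in the CTX libraries and 2.60, 2.86 and 4.35 FPKM in the NC libraries, with NC replicate 3 highest.

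The co-receptors differed from each other in HBOT replicate 2. Lrp5 was at 18.1, 16.9 and 17.8 FPKM in the HBOT libraries, 22.3, 15.1 and 16.1 FPKM in the CTX libraries and 13.3, 16 and 16.5 FPKM in the NC libraries. Lrp6, by contrast, was at 16.4, 31.2 and 15.8 FPKM in the HBOT libraries, 15.8, 12.5 and 12.4 FPKM in the CTX libraries and 14.1, 15.5 and 17.3 FPKM in the NC libraries, with HBOT replicate 2 highest and the other 8 libraries between 12.4 and 17.3 FPKM. CTX replicate 1 was highest for Lrp5.

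Of the R-spondin receptors, Lgr5 had the most negative log2 fold change of the 30 genes in CTX against NC in the fit described below. Lgr5, itself a well-known target gene of beta-catenin, stood at 11.9, 3.45 and 16 FPKM in the HBOT libraries, 5.82, 2.89 and 2.72 FPKM in the CTX libraries and 17.7, 19.1 and 19.5 FPKM in the NC libraries. The NC libraries lay close together and above all others, HBOT replicates 1 and 3 lay between, and HBOT replicate 2 lay among the CTX libraries. Lgr4, the broadly expressed member, was at 12.8, 12 and 14.2 FPKM in the HBOT libraries, 7.97, 18.7 and 21.1 FPKM in the CTX libraries and 21.8, 31.5 and 19.7 FPKM in the NC libraries. All HBOT libraries were below NC, and CTX replicate 1 was the lowest of the 9 libraries. Lgr6 was at 9.12, 2.51 and 2.86 FPKM in the HBOT libraries, 4.98, 3.48 and 4.34 FPKM in the CTX libraries and 2.84, 2.98 and 2.84 FPKM in the NC libraries. Its CTX libraries were above the NC libraries, and HBOT replicate 1 was highest.

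The 3 receptors summed to 17.9 to 33.8 FPKM in HBOT, 18.8 to 28.1 FPKM in CTX and 42.0 to 53.6 FPKM in NC. Lgr5 made up 19.3% to 48.4% of the sum in HBOT, 9.67% to 31.0% in CTX and 35.6% to 46.3% in NC. The receptor sum was thus higher in every NC library than in any other.

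Of their ligands, Rspo2 was at 4.27, 6.21 and 4.23 FPKM in the HBOT libraries, 4.50, 4.54 and 2.95 FPKM in the CTX libraries and 2.91, 2.61 and 2.62 FPKM in the NC libraries. The HBOT and CTX libraries were all above the NC libraries, though CTX replicate 3 at 2.95 FPKM was close to NC replicate 1 at 2.91 FPKM. Rspo1 was at 5.34, 5.21 and 2.95 FPKM in the HBOT libraries, 7.40, 6.90 and 2.79 FPKM in the CTX libraries and 5.30, 5.81 and 5.67 FPKM in the NC libraries, low in CTX replicate 3 and HBOT replicate 3. The ligase Znrf3, which R-spondins block and which is also a beta-catenin target, was at 4.84, 3.90 and 4.52 FPKM in the HBOT libraries, 4.78, 5.35 and 4.82 FPKM in the CTX libraries and 6.03, 6.06 and 5.56 FPKM in the NC libraries. Its NC libraries were highest.

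Sfrp4, which binds WNT ligands, was the most abundant gene of the set, at 438, 679 and 603 FPKM in the HBOT libraries, 172, 192 and 565 FPKM in the CTX libraries and 642, 546 and 475 FPKM in the NC libraries. CTX replicates 1 and 2 were the lowest of the 9 libraries, while CTX replicate 3 lay among the NC and HBOT libraries. Sfrp4 made up at least 90.6% of the Sfrp sum in every library. Sfrp1 was at 20.3, 9.49 and 22.2 FPKM in the HBOT libraries, 17.2, 14.8 and 13.5 FPKM in the CTX libraries and 15.9, 20.5 and 22.2 FPKM in the NC libraries, lowest in HBOT replicate 2. Dkk3, which, unlike DKK1, is not established as an LRP blocker, was at 22.1, 14.9 and 19.1 FPKM in the HBOT libraries, 20.4, 19.3 and 16.7 FPKM in the CTX libraries and 16, 18.4 and 19.2 FPKM in the NC libraries, with overlapping groups.

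Sfrp2 averaged under 2 FPKM and is described because its HBOT libraries did not overlap the others. It was at 3.83, 8.29 and 1.46 FPKM in the HBOT libraries, 0.543, 0.790 and 0.253 FPKM in the CTX libraries and 0.899, 0.716 and 0.867 FPKM in the NC libraries. The 3 HBOT libraries were highest, with HBOT replicate 2 above the rest.

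**Figure D3:**
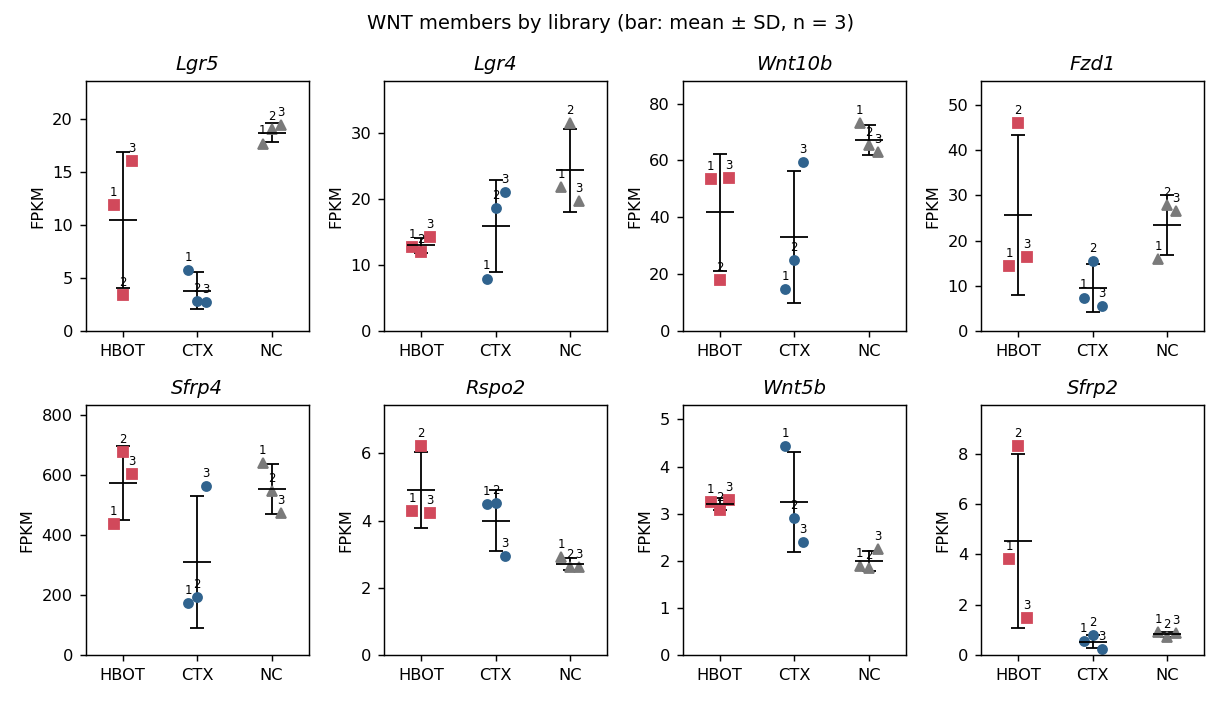
FPKM of 8 WNT genes in each library, with replicate numbers beside the points and the mean ± SD of 3 libraries as bars. Lgr5 is at 2.72 to 5.82 FPKM in CTX and 17.7 to 19.5 FPKM in NC, while Sfrp4 is low in CTX replicates 1 and 2 only.

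CTX was set against NC to see the drug without oxygen. Lgr5 (ENSMUSG00000020140) was at 3.81 ± 1.74 FPKM in CTX and 18.7 ± 0.924 FPKM in NC (mean ± SD, n = 3 each; log2 fold change -2.09, SE 0.45, limma adjusted p = 0.301). Fzd1 (ENSMUSG00000044674) was at 9.52 ± 5.27 FPKM in CTX and 23.5 ± 6.58 FPKM in NC (log2 fold change -1.29, SE 0.48, limma adjusted p = 0.547), and Wnt10b (ENSMUSG00000022996) at 33.1 ± 23.3 FPKM in CTX and 67.3 ± 5.32 FPKM in NC (log2 fold change -1.22, SE 0.52, limma adjusted p = 0.613). A fold change here is a difference of log2(FPKM + 1) and is too small for low genes. The limma model covered all 13338 rows, with calls at an adjusted p under 0.05. By that rule 0 of the 30 WNT genes were called, as were 0 of all rows (0%), and the smallest adjusted p of any row was 0.169.

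At an unadjusted p under 0.05, 6 of the 30 WNT genes (20.0%) stood out, 5 lower and 1 higher in CTX, against 7.98% of all rows, or 2.74% lower and 5.24% higher. For 7 of the 30 (23.3%) all 3 CTX libraries lay on one side of all 3 NC libraries, against 21% of all rows. Of these, 4 were lower in CTX (13.3%, against 7.8% of all rows) and 3 higher (10.0%, against 13.2%). The share without overlap, both directions together, thus lay near that of all rows. The share at an unadjusted limma p under 0.05 lay above that of all rows (20.0%, against 7.98%). The median log2 fold change of the 30 genes was -0.11, against 0.05 over all rows, and 18 of them had a negative value. Without Sfrp2, Wnt7b and Wnt11, 27 genes remained, of which 7 did not overlap (25.9%, against 21.0% of rows at 1 FPKM in at least 4 libraries). At an unadjusted p under 0.05, 4 of the 27 were lower (14.8%, against 2.75% of those rows) and 1 higher (3.70%, against 5.25%).

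Other genes named by non-overlap differed less. Znrf3 was at 4.98 ± 0.320 FPKM in CTX and 5.89 ± 0.279 FPKM in NC (log2 fold change -0.20, SE 0.12, limma adjusted p = 0.748). Wnt5b was at 3.25 ± 1.05 FPKM in CTX and 1.99 ± 0.219 FPKM in NC (log2 fold change 0.48, SE 0.18, limma adjusted p = 0.561), Rspo2 at 4.0 ± 0.908 FPKM in CTX and 2.71 ± 0.171 FPKM in NC (log2 fold change 0.41, SE 0.19, limma adjusted p = 0.629) and Lgr6 at 4.27 ± 0.754 FPKM in CTX and 2.89 ± 0.0797 FPKM in NC (log2 fold change 0.43, SE 0.36, limma adjusted p = 0.861). Other genes, whose groups overlapped, were singled out after their values were seen. Sfrp4 was at 309.7 ± 221 FPKM in CTX and 555 ± 83.7 FPKM in NC (log2 fold change -1.05, SE 0.41, limma adjusted p = 0.580), Lgr4 at 15.9 ± 6.97 FPKM in CTX and 24.3 ± 6.32 FPKM in NC (log2 fold change -0.66, SE 0.32, limma adjusted p = 0.684) and Wnt7b at 0.188 ± 0.165 FPKM in CTX and 0.936 ± 0.565 FPKM in NC (log2 fold change -0.67, SE 0.29, limma adjusted p = 0.622). The value for Wnt10b was -0.78 without CTX replicate 1, that of Lgr4 -0.25 without CTX replicate 1, that of Sfrp4 -1.59 without CTX replicate 3, that of Wnt7b -1.83 with a pseudocount of 0.1 and -1.13 with TPM scaling, and that of Wnt5b 0.29 without CTX replicate 1.

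The Lgr5 difference was called in some fits and not in others. In a fit of the CTX and NC libraries alone its adjusted p was 0.0345, with a weight for each library 0.00698 (log2 fold change -2.20), and without HBOT replicate 2, whose spread otherwise enters the shared estimate, 0.0387 (limma in each case). Without HBOT replicate 2 and CTX replicate 1 it was 0.00534 (-2.37). CTX replicate 1 was the CTX library nearest to NC for Lgr5, so leaving it out had to widen the difference. Over all settings the log2 fold change of Lgr5 ran from -2.37 to -1.94 and its limma adjusted p from 0.00534 to 0.79. Each of the 3 CTX libraries was below each NC library.

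In whole-ovary RNA, fewer cells of a type and less RNA per cell cannot be told apart. Of the surface epithelium markers, 7 of 8 averaged at least 1 FPKM and none was at 0. Their sums overlapped, at 88.0 to 126 FPKM in CTX and 89.7 to 124 FPKM in NC. Aldh1a2 was the largest member in each of these libraries. It was at 50.7 FPKM in CTX replicate 3 and 47.7 FPKM in NC replicate 1, the libraries with the lowest sums of their groups. The surface epithelium sum therefore does not stand for the whole list. The corpus luteum markers other than Sfrp4, 5 of 5 with a mean of at least 1 FPKM and none at 0, summed to 447 to 941 FPKM in CTX and 2819 to 3220 FPKM in NC (3219.5 in NC replicate 1). Akr1c18, which breaks down progesterone, gave most of that sum in NC. It was at 289, 125 and 153 FPKM in the CTX libraries, against 2509, 2464 and 2127 FPKM in the NC libraries. Ptgfr was also lower, at 15.2, 33.6 and 67.2 FPKM in the CTX libraries and 120, 103 and 112 FPKM in NC. So was Onecut2, at 1.36, 0.513 and 0.908 FPKM in the CTX libraries and 5.30, 5.35 and 10.2 FPKM in NC. In neither gene did the groups overlap. The luteal genes Lhcgr and Star did not follow Akr1c18. The luteinizing hormone receptor gene Lhcgr was at 64.9, 112 and 178 FPKM in the CTX libraries, against 107, 125 and 25.4 FPKM in the NC libraries, and Star, which brings cholesterol into mitochondria, at 76.8, 338 and 542 FPKM in the CTX libraries, against 478, 386 and 544 FPKM in the NC libraries, with overlap in both. Granulosa markers summed to 1465 to 2458 FPKM in CTX and 1350 to 1932 FPKM in NC (1349.8 in NC replicate 2). Inha gave most of that sum in each of these libraries, at 996 to 1771 FPKM in CTX and 1002 to 1524 FPKM in NC. The granulosa sum therefore does not stand for the whole list. Oocyte markers summed to 194 to 292 FPKM in CTX and 123 to 174 FPKM in NC. The part of these cell type markers in the WNT values was not tested.

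**Figure D4:**
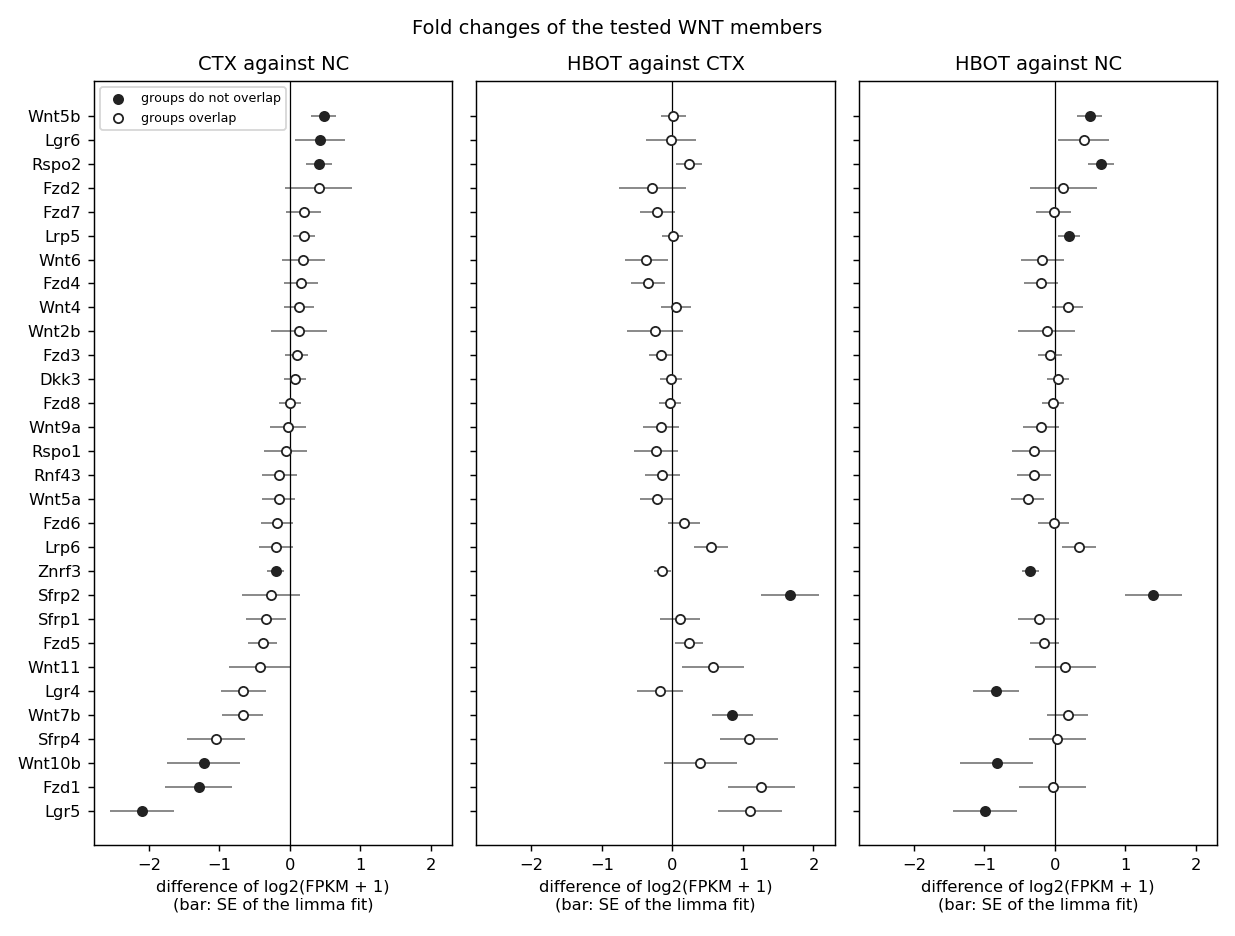
Difference of log2(FPKM + 1) of the 30 tested WNT genes in 3 comparisons, with the SE of the limma fit as bars and filled points where the libraries of the groups do not overlap. Lgr5 is lowest in CTX against NC (-2.09), Sfrp2 is highest in HBOT against CTX (1.67), and 0 of the 30 genes passed an adjusted p of 0.05 in any comparison.

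HBOT was set against CTX to see the drug with and without oxygen. This shares the CTX libraries with the comparison above, so opposite values in the pair are not independent. Sfrp2 was at 4.53 ± 3.47 FPKM in HBOT and 0.529 ± 0.269 FPKM in CTX (mean ± SD, n = 3 each; log2 fold change 1.67, SE 0.41, limma adjusted p = 0.710), and Wnt7b, a ligand of the beta-catenin route, at 0.754, 0.788 and 2.07 FPKM in the HBOT libraries, against 0.162, 0.365 and 0.0381 FPKM in the CTX libraries (log2 fold change 0.85, SE 0.29, limma adjusted p = 0.710). They were the only genes of the 30 tested whose libraries did not overlap. These 2 of 30 (6.67%), both higher in HBOT, compare with 10.2% of all rows, or 3.76% higher and 6.44% lower. By limma 0 of 30 were called, as were 0 of all rows (0%). Sfrp2 passed the filter on low values only through the HBOT libraries, and Wnt7b through HBOT replicate 3 and NC replicates 2 and 3, so the filter had a part in their differences. With a pseudocount of 0.1 the log2 fold change was 2.67 for Sfrp2 and 2.20 for Wnt7b, and with TPM scaling it was 1.38 for Wnt7b.

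At an unadjusted p under 0.05, 5 of the 30 WNT genes (16.7%) were higher and 0 lower in HBOT, against 6.09% of all rows, or 2.41% higher and 3.67% lower. Without Sfrp2, Wnt7b and Wnt11 the count was 3 of 27 (11.1%, against 2.39% of rows at 1 FPKM in at least 4 libraries), and 0 of 27 did not overlap (against 10.2%). Besides Sfrp2 and Wnt7b the 5 were Sfrp4, Fzd1 and Lgr5, which were singled out here after their values were seen and whose groups overlapped. Sfrp4 was at 573 ± 123 FPKM in HBOT and 309.7 ± 221 FPKM in CTX (log2 fold change 1.08, SE 0.41, limma adjusted p = 0.710), with a log2 fold change of 1.63 without CTX replicate 3 and of 0.64 without HBOT replicate 2 and CTX replicate 1. Fzd1 was at 25.6 ± 17.7 FPKM in HBOT and 9.52 ± 5.27 FPKM in CTX (log2 fold change 1.26, SE 0.48, limma adjusted p = 0.710), with a log2 fold change of 0.75 without HBOT replicate 2, 0.65 without that library and CTX replicate 1, and 0.61 with library weights. Lgr5 was at 10.5 ± 6.42 FPKM in HBOT and 3.81 ± 1.74 FPKM in CTX (log2 fold change 1.10, SE 0.45, limma adjusted p = 0.710), with a log2 fold change of 1.68 without HBOT replicate 2 (limma adjusted p = 0.247) and of 0.71 without HBOT replicate 3.

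Without HBOT replicate 2 and CTX replicate 1, Lgr5 was called in this comparison (1.96, limma adjusted p = 0.027, over all settings 0.027 to 0.867), on 2 libraries each. For Lgr5 the libraries left out were the lowest of HBOT and the highest of CTX, so leaving them out had to widen the difference. The call is therefore no independent support for it. HBOT replicates 1 and 3 stood at 11.9 and 16 FPKM, above all CTX libraries, and HBOT replicate 2 at 3.45 FPKM, below CTX replicate 1. Lrp6 and Wnt10b, whose groups overlapped, were also singled out after their values were seen. Lrp6 was at 21.1 ± 8.75 FPKM in HBOT and 13.5 ± 1.96 FPKM in CTX (log2 fold change 0.54, SE 0.24, limma adjusted p = 0.710), with a log2 fold change of 0.24 without HBOT replicate 2, 0.35 without that library and CTX replicate 1, and 0.32 with library weights. Wnt10b was at 41.8 ± 20.5 FPKM in HBOT and 33.1 ± 23.3 FPKM in CTX (log2 fold change 0.40, SE 0.52, limma adjusted p = 0.793) and had no stable direction. It was at -0.04 without CTX replicate 1, 0.92 without CTX replicate 3, 0.90 without HBOT replicate 2, 0.15 without HBOT replicate 1, 0.14 without HBOT replicate 3 and 0.75 with library weights. The median log2 fold change of the 30 genes was -0.01, against -0.07 over all rows.

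The luteal markers other than Sfrp4 summed to 375, 2354 and 3402 FPKM in HBOT replicates 1, 2 and 3, and to 447, 609.9 and 941 FPKM in the CTX libraries. These sums are not one luteal level, since that of HBOT replicate 2 was mostly Star (1877 FPKM, with Akr1c18 at 418 FPKM) and that of HBOT replicate 3 mostly Akr1c18 (2848 FPKM). Surface epithelium markers summed to 79.3 to 111 FPKM in HBOT and 88.0 to 126 FPKM in CTX. The part of either marker list in the WNT values was not tested.

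HBOT was also set against NC, that is, the drug and oxygen together against controls. Rspo2 was at 4.90 ± 1.13 FPKM in HBOT and 2.71 ± 0.171 FPKM in NC (mean ± SD, n = 3 each; log2 fold change 0.65, SE 0.19, limma adjusted p = 0.309). Sfrp2 was at 4.53 ± 3.47 FPKM in HBOT and 0.827 ± 0.0977 FPKM in NC (log2 fold change 1.40, SE 0.41, limma adjusted p = 0.318) and Wnt5b at 3.21 ± 0.119 FPKM in HBOT and 1.99 ± 0.219 FPKM in NC (log2 fold change 0.49, SE 0.18, limma adjusted p = 0.372). Lower in HBOT were Znrf3, at 4.42 ± 0.481 FPKM in HBOT and 5.89 ± 0.279 FPKM in NC (log2 fold change -0.35, SE 0.12, limma adjusted p = 0.354), Lgr4, at 13 ± 1.15 FPKM in HBOT and 24.3 ± 6.32 FPKM in NC (log2 fold change -0.83, SE 0.32, limma adjusted p = 0.389), Lgr5, at 10.5 ± 6.42 FPKM in HBOT and 18.7 ± 0.924 FPKM in NC (log2 fold change -0.99, SE 0.45, limma adjusted p = 0.429), and Wnt10b, at 41.8 ± 20.5 FPKM in HBOT and 67.3 ± 5.32 FPKM in NC (log2 fold change -0.82, SE 0.52, limma adjusted p = 0.528). By limma 0 of 30 were called, as were 0 of all rows (0%), and the smallest adjusted p of any row was 0.235.

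For 8 of the 30 WNT genes (26.7%) the HBOT and NC libraries did not overlap, against 20.5% of all rows, 4 in each direction (13.3%, against 10.9% higher and 9.6% lower). The eighth gene was Lrp5, at 17.6 ± 0.633 FPKM in HBOT and 15.3 ± 1.73 FPKM in NC (log2 fold change 0.20, SE 0.15, limma adjusted p = 0.597), with a log2 fold change of 0.11 without NC replicate 1. At an unadjusted p under 0.05 there were 5 (16.7%, against 11.9% of all rows), 3 higher (against 6.22%) and 2 lower (against 5.65%). Sfrp2 is in both counts and passed the filter on low values only through HBOT. Without Sfrp2, Wnt7b and Wnt11, 7 of 27 did not overlap (25.9%, against 20.5% of rows at 1 FPKM in at least 4 libraries). Of these, 3 were higher (11.1%, against 10.9% of those rows) and 4 lower (14.8%, against 9.66%). At an unadjusted p under 0.05 there were 4, 2 in each direction (7.41% each, against 6.14% higher and 5.70% lower), near the shares of those rows. The median log2 fold change was -0.03, against -0.01 over all rows. Without HBOT replicate 2 the value of Lgr5 was -0.41, that of Wnt10b -0.32 and that of Sfrp2 0.92, and with library weights that of Lgr5 was -0.50 and that of Wnt10b -0.40. Both comparisons against NC share the NC libraries. Oocyte markers summed to 277 to 313 FPKM in HBOT and 123 to 174 FPKM in NC, and theca and stroma markers (8 of 8 with a mean of at least 1 FPKM, none at 0) to 926 to 1347 FPKM in HBOT and 677 to 835 FPKM in NC. Of the theca and stroma list, Cyp17a1 alone did not overlap. It was at 698, 685 and 283 FPKM in the HBOT libraries and 119, 62.7 and 29.0 FPKM in the NC libraries. Pdgfra, Dcn, Lum, Col1a1, Col3a1, Tcf21 and Nr2f2 overlapped between HBOT and NC, so the sum does not stand for the whole list. The part of either marker list in these WNT values was not tested.

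Rspo1, Wnt2b and Rnf43, singled out after their values were seen, were low in the same libraries. Rnf43, a ligase like Znrf3, was at 1.90, 1.48 and 0.896 FPKM in the HBOT libraries, 2.28, 2.01 and 0.855 FPKM in the CTX libraries and 1.86, 1.77 and 2.17 FPKM in the NC libraries. In all 3 genes CTX replicate 3 and HBOT replicate 3 were the lowest of the 9 libraries, as they were for Fzd6 and Wnt11, making 5 of the 30 tested WNT genes (16.7%), against 2.83% of all tested rows. Rspo1, Wnt2b and Rnf43 set this pair of libraries, so they are in the count of 5 by choice. Its share is therefore not a test against that of all rows. Both libraries were also the lowest for 4 of the 8 surface epithelium markers, Upk3b, Krt18, Msln and Lrrn4. They were not for Krt7, Krt8, Krt19 and Aldh1a2. Krt19 was lowest in NC replicate 1 (8.45 FPKM), and Aldh1a2 in HBOT replicate 2 (31.3 FPKM), with CTX replicate 3 at 50.7 FPKM. The urothelial and mesothelial gene Upk3b was at 13.7, 15.1 and 6.77 FPKM in the HBOT libraries, 16.9, 15.3 and 5.72 FPKM in the CTX libraries and 10.1, 14 and 15 FPKM in the NC libraries. The keratin gene Krt18 was at 6.87, 9.78 and 3.44 FPKM in the HBOT libraries, 10.9, 11.4 and 4.51 FPKM in the CTX libraries and 4.87, 6.49 and 8.19 FPKM in the NC libraries. Msln, which encodes mesothelin, was at 1.88 FPKM in HBOT replicate 3 and 2.75 FPKM in CTX replicate 3, with NC replicate 1 next at 2.90 FPKM. The 8 surface epithelium markers together summed to 79.3 FPKM in HBOT replicate 3, 88.0 FPKM in CTX replicate 3 and to 89.7 to 126 FPKM in the other 7. Whether the amount of surface tissue in a library set these WNT values was not tested. Lgr5 was not low there in both, at 16 FPKM in HBOT replicate 3 and 2.72 FPKM in CTX replicate 3.

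**Figure D5:**
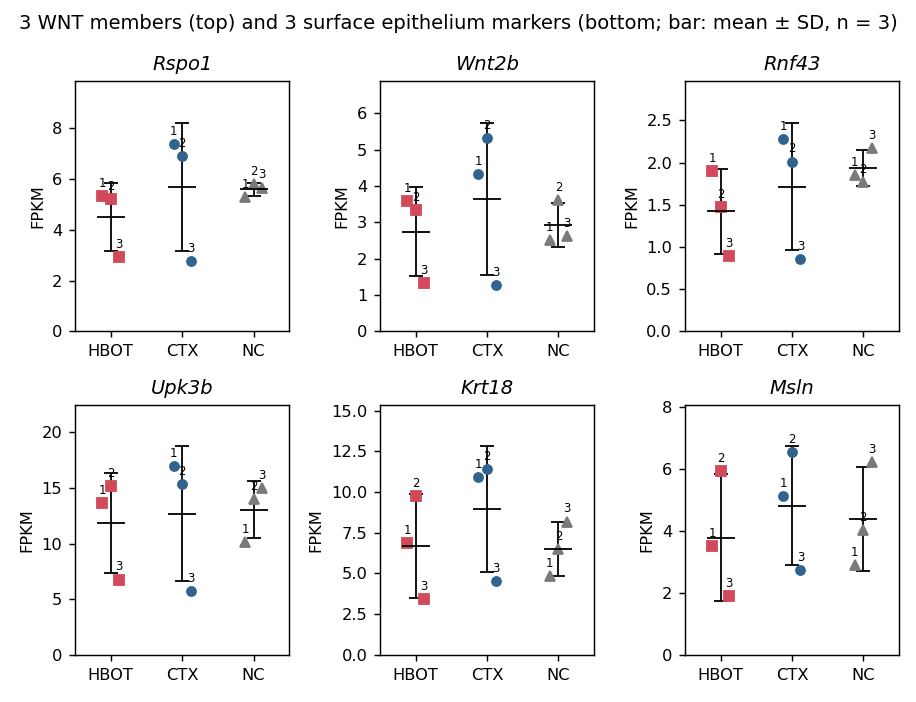
FPKM of Rspo1, Wnt2b and Rnf43 (top) and of Upk3b, Krt18 and Msln (bottom), 3 of the 4 of 8 surface epithelium markers with the same lowest libraries, chosen after their values were seen, by library, with replicate numbers and the mean ± SD of 3 libraries. In each panel HBOT replicate 3 and CTX replicate 3 are the lowest points.

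The rest of the pathway was read from 6 lists. Of the 59 tested genes in them, 0 were called in any comparison by limma. The counts of directions below include values near 0. Over all rows, 40.5% of log2 fold changes were below 0 in CTX against NC, 61.6% in HBOT against CTX and 52.4% in HBOT against NC. Among genes for secretion and release, Porcn, the enzyme that attaches the lipid to WNT proteins, was at 33.8, 2.66 and 14.4 FPKM in the HBOT libraries, 4.98, 5.35 and 6.32 FPKM in the CTX libraries and 11.7, 11.3 and 11 FPKM in the NC libraries. CTX was below NC in every library (log2 fold change -0.92, SE 0.65), and the HBOT libraries spanned both. In a fit of the CTX and NC libraries alone Porcn was called (limma adjusted p = 0.0382), and in each of the other settings its adjusted p was at least 0.185. Wls, which carries WNT proteins to the surface, was at 38, 39.1 and 29.8 FPKM in the CTX libraries, against 41.4, 48.4 and 65.1 FPKM in the NC libraries (log2 fold change -0.51, SE 0.21), with a log2 fold change of -0.33 without NC replicate 3. Of the 4 tested genes of this list 3 were lower in CTX, with a median of -0.30. In HBOT against NC, Gpc4, a glypican that holds WNT at the cell surface, was at 60.8, 57.5 and 49.7 FPKM in the HBOT libraries, against 64.8, 64.9 and 65.1 FPKM in the NC libraries (log2 fold change -0.21, SE 0.12), with a log2 fold change of -0.13 without HBOT replicate 3.

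Of 4 tested extracellular modulators 2 were lower in CTX (median -0.12). Igfbp4, a binding protein of insulin-like growth factors that also restrains WNT receptors, was at 49.7, 38.3 and 78.5 FPKM in the HBOT libraries, 49.96, 68.5 and 52 FPKM in the CTX libraries and 90.7, 93.9 and 127 FPKM in the NC libraries. It was lower in CTX than in NC (log2 fold change -0.86, SE 0.26, limma adjusted p = 0.424) and lower in HBOT than in NC (log2 fold change -0.94, SE 0.26, limma adjusted p = 0.295), with no overlap in either. Frzb, a WNT-binding relative of the SFRP proteins, was at 4.35, 8.04 and 2.38 FPKM in the HBOT libraries, against 1.97, 1.79 and 1.79 FPKM in the NC libraries (log2 fold change 0.94, SE 0.42), with a log2 fold change of 0.58 without HBOT replicate 2.

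Cytoplasmic transducers came next. Of 14 tested, 8 were lower and 6 higher in CTX against NC (median -0.03), where Gsk3a, a kinase that marks beta-catenin for destruction, was at 62.6 ± 3.73 FPKM in CTX and 54.6 ± 3.08 FPKM in NC (log2 fold change 0.19, SE 0.09) and Tnks2, a tankyrase that destabilises axin, at 30.1 ± 1.14 FPKM in CTX and 33.2 ± 2.30 FPKM in NC (log2 fold change -0.14, SE 0.12, and -0.09 without NC replicate 2). In HBOT against NC, 9 were higher and 5 lower (0.07). There Ctnnb1, which encodes beta-catenin, was at 172, 163 and 167 FPKM in the HBOT libraries, against 222, 243 and 206 FPKM in the NC libraries (log2 fold change -0.41, SE 0.14, limma adjusted p = 0.362), and the kinase Csnk1d at 70.5 ± 8.10 FPKM in HBOT and 59.6 ± 1.81 FPKM in NC (log2 fold change 0.23, SE 0.11, and 0.14 without HBOT replicate 2).

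Nuclear mediators were the next list. Of 14 tested, 10 were higher in CTX than in NC (median 0.17, against 0.05 over all rows), 8 higher in HBOT than in CTX (0.09, against -0.07) and 11 higher in HBOT than in NC (0.18, against -0.01). Tcf7, one of the DNA-binding partners of beta-catenin, was at 35.9, 40.1 and 30.8 FPKM in the HBOT libraries, 39.1, 21.8 and 23 FPKM in the CTX libraries and 19.1, 21 and 21.4 FPKM in the NC libraries. The HBOT and CTX libraries were above all NC libraries (HBOT against NC log2 fold change 0.76, SE 0.21, limma adjusted p = 0.295; CTX against NC log2 fold change 0.38, SE 0.21, and 0.12 without CTX replicate 1). The co-activator Pygo2 was at 27.5, 32.3 and 33 FPKM in the HBOT libraries, 30.4, 28.4 and 28.7 FPKM in the CTX libraries and 21.2, 24.7 and 26.7 FPKM in the NC libraries (HBOT against NC log2 fold change 0.34, SE 0.12; CTX against NC log2 fold change 0.27, SE 0.12). Higher in HBOT than in CTX without overlap were Lef1, another such partner, at 1.37 ± 0.0928 FPKM in HBOT and 0.958 ± 0.0845 FPKM in CTX (log2 fold change 0.28, SE 0.14, and 0.47 with a pseudocount of 0.1), and the co-repressor Tle3, at 26.1 ± 14.1 FPKM in HBOT and 15.7 ± 1.63 FPKM in CTX (log2 fold change 0.58, SE 0.30, and 0.19 without HBOT replicate 2, where it stood at 42.3 FPKM).

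Of 9 common beta-catenin targets tested, 8 had a log2 fold change below 0 in CTX against NC, with a median of -0.09 (against 0.05 over all rows), and 1 of 9 did not overlap (against 21% of all rows). This was Nkd2, at 1.45, 1.29 and 1.21 FPKM in the CTX libraries, against 1.46, 2.33 and 2.20 FPKM in the NC libraries (log2 fold change -0.36, SE 0.27, and -0.54 with a pseudocount of 0.1). Axin2, a widely used reporter of beta-catenin activity named here after its values were seen, was at 8.85, 5.67 and 7.86 FPKM in the HBOT libraries, 9.30, 10.04 and 6.22 FPKM in the CTX libraries and 7.18, 10.4 and 9.49 FPKM in the NC libraries (CTX against NC log2 fold change -0.09, SE 0.22). The CTX and NC libraries of Axin2 overlapped. Whether beta-catenin activity differed between the groups was not tested. In HBOT against CTX 5 of 9 were higher (0.10), and in HBOT against NC 3 of 9 (-0.11).

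Receptors and scaffolds of planar cell polarity formed the last list. Ror1, a receptor for WNT5A, was at 3.06, 2.62 and 2.86 FPKM in the HBOT libraries, 2.29, 2.23 and 2.05 FPKM in the CTX libraries and 3.23, 3.33 and 3.79 FPKM in the NC libraries, with CTX below all other libraries (CTX against NC log2 fold change -0.48, SE 0.12, limma adjusted p = 0.343). Dact1, which binds Dishevelled, was at 10.7, 10.4 and 12.2 FPKM in the HBOT libraries, 8.82, 9.32 and 7.59 FPKM in the CTX libraries and 10.5, 12.6 and 12.4 FPKM in the NC libraries (CTX against NC log2 fold change -0.42, SE 0.13; HBOT against CTX log2 fold change 0.34, SE 0.13). Prickle1, a polarity protein, was higher in HBOT than in both other groups, at 8.97, 9.57 and 7.05 FPKM in the HBOT libraries, 6.32, 5.98 and 4.98 FPKM in the CTX libraries and 5.23, 5.55 and 6.55 FPKM in the NC libraries (HBOT against CTX log2 fold change 0.49, SE 0.15; HBOT against NC log2 fold change 0.49, SE 0.15). The related receptor Ror2 was at 3.46, 11 and 2.81 FPKM in the HBOT libraries, against 1.94, 2.39 and 2.46 FPKM in the NC libraries (log2 fold change 0.86, SE 0.40), with HBOT replicate 2 highest and a value of 0.34 without it. Of the 14 tested, 8 were lower in CTX than in NC (median -0.02), 10 higher in HBOT than in CTX (0.12) and 9 higher in HBOT than in NC (0.12).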

How the data were processed

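Values are FPKM, which the authors deposited as 1 table of 22544 rows by 9 libraries. Columns were matched to samples through the sample descriptions (0 columns unmatched). Per the labels' protocols, RNA was extracted with TRIzol, selected with oligo(dT) beads and read in pairs. Per the submitters' processing notes, fastp 0.23.4 and build GRCm39 were used. Aligner, counter and annotation were not given in the sources used here. FPKM keeps no read counts, and low values showed no steps of whole reads, so depth is unknown and the spread between libraries is the one measure of precision.

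Rows with at least 1 FPKM in at least 3 libraries were tested, 13338 in total. A linear model of the 3 groups (6 residual degrees of freedom) was fitted to log2(FPKM + 1) with limma 3.58.1 under R 4.3.3, using eBayes with a trend, with p-values adjusted by Benjamini and Hochberg over all rows. It was tested on simulated data in which each row had the same spread in every library. No simulated library stood apart as HBOT replicate 2 did, so that run says nothing about such a library. Genes were named where the groups did not overlap, up to 5 in each direction by p, and up to 2 in each pathway list; others are marked as singled out. The members and lists were chosen with earlier results of these data known. Alternatives tried were a filter of 5 FPKM or none, a pseudocount of 0.1, TPM and median-of-ratios scaling, the 2 groups alone, a replicate block, library weights and libraries left out. Counts over rows at 1 FPKM in at least 4 libraries were added later. Sequences come from RefSeq, build GRCm38.p6. Its coordinates were not joined to the table. Figures were drawn with matplotlib 3.10.9.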

Additional observations from a re-analysis of the deposited data

How the results depend on the processing

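In the fit described above limma called 0 rows in each comparison. In CTX against NC the count over all rows was 31 in a fit of those 2 groups, 123 with library weights and 16 without HBOT replicate 2 and CTX replicate 1, and 0 to 9 with 1 library left out (8 without HBOT replicate 2, 9 without HBOT replicate 3, 1 without NC replicate 1). In HBOT against CTX it was 1 without a filter, 5 with weights, 2 without that pair of libraries, and 0 to 1 with 1 left out. In HBOT against NC it was 1 without a filter, 181 with weights, and 0 to 3 with 1 left out. WNT genes called were Lgr5 alone: 1 in CTX against NC with those 2 groups, with weights and without that pair of libraries, and 0 to 1 with 1 left out, and 1 in HBOT against CTX without the pair. For Lgr5 that pair held the lowest HBOT and the highest CTX value, so the calls without the pair are no independent support. In HBOT against NC the count of WNT genes was 0 in every setting. The cause of these shifts was not tested. WNT genes at an unadjusted p under 0.05, a count chosen after seeing the data, ran from 1 to 8, 3 to 7 and 2 to 9 over the settings in the 3 comparisons. The shares of all rows at that p are given for the fit described above only (7.98%, 6.09% and 11.9%). These ranges therefore cannot be set against all rows in the same setting. Of 49 named fold changes 48 kept their direction in every setting that gave a value (up to 18), and Wnt10b in HBOT against CTX ran from -0.0419 without CTX replicate 1 to 0.9208 without CTX replicate 3. Much of this was fixed in advance. Where groups did not overlap, leaving out a library could not reverse the direction. The filters, the 2 groups alone and the replicate block left a fold change as it was, as did leaving out a library of the group not compared. The 48 are therefore no test of stability. The replicate block left the counts of calls at 0, for all rows and for WNT genes in each comparison. Replicate numbers share no stated source. Deviations from group means were correlated between libraries. Between CTX and NC, same-numbered libraries correlated at -0.29 to 0.16 and other pairs at -0.30 to 0.41. In pairs with HBOT the same ranges were 0.03 to 0.11 and -0.13 to 0.05. Not every library correlated best with its own number, and whether the numbers mark a shared source was not tested. Depth is unknown, so no counting error can be given, also for the 18 WNT genes under 1 FPKM in all 9 libraries.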
